A study of Mus musculus with 12 samples.

Results

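The 80 genes described here encode proteins of the cytosolic ribosome, the machine that translates messenger RNA outside mitochondria. They were chosen by name from the 40594 genes of the count table, as protein-coding genes called Rpl or Rps with a number, with Rplp0, Rplp1, Rplp2 and Rpsa. Of them, 50 carry an Rpl name, for the large subunit, and 30 an Rps name, for the small subunit. Counts were too low to test for Rpl10l, Rpl23a, Rpl24 and Rpl39l, so 76 of the 80 were among the 15494 genes tested.

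RNA came from the hearts of adult mice that were Wnt LOF, a loss of function in the Wnt signalling pathway, or control. The 4 groups of 3 libraries were the right ventricle (RV) and left ventricle (LV) of WntLOF hearts and the RV and LV of control hearts. The labels name neither the allele behind the loss of function, nor a Cre driver, nor the genotype of the controls beyond the word control. They do not say whether 3 libraries of a group came from 3 animals, so p-values measure the spread between these libraries.

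Each ribosome holds a single copy of most of these proteins, and the genes are therefore usually expressed together. Their messages begin with a run of pyrimidines, the 5′ terminal oligopyrimidine (TOP) tract, through which mTORC1 and LARP1 adjust their translation. Mammalian genomes also carry many processed pseudogenes of ribosomal protein genes, intronless copies made by reverse transcription. In heart muscle, ribosome content accompanies growth of the muscle cell, and the muscle paralogue Rpl3l can take the place of Rpl3 in the large subunit.

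Library totals ran from 13274922 to 19173391 reads, and reads on the 80 genes from 28664 to 54564 per library. Cardiomyocyte markers (8 of 8 detected) summed to between 75773 and 84720 CPM (reads of a gene per 1000000 reads of the library) in every library, and no marker of the 11 cell type lists was at 0 in all libraries of a group. Libraries numbered 3 were the only ones with the Y-linked gene Ddx3y above 1 CPM. Of the 100 genes outside the ribosomal set with the smallest p in control RV against LV, 24 had the control direction in WntLOF pair 1, against 86 in WntLOF pair 2 and 81 in WntLOF pair 3. The pair labelled WntLOF RV 1 and WntLOF LV 1 thus ran mostly opposite to the control pairs under its ventricle labels. The library labelled control LV 2 parted from control RV 2 in a pair of ribosomal pseudogenes described last. Set medians and counts at a p level are given for some comparisons without these libraries as well. Read shares, counts over pairs, counts without overlap and most values of single members are given with all libraries only.

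Promoter sequences show what the genes share before any level is read. The RefSeq promoter table (GRCm38.p6, 250 bases before to 50 after each listed start) held 72 entries for 60 of the 80 genes. Searched on both strands, CGGAAG, the core bound by ETS factors such as GABPA, stood in 61.1% of these entries and in 16.9% of all 32817 promoters. GCCATNTT, a YY1 motif, stood in 20.8% of member entries and in 6.04% of all. GGGCGG, the SP box, stood in 58.3% of member entries and 35.6% of all. TATAAA was rarer among members, at 6.94% against 13.6%. A C followed by at least 4 pyrimidines, beginning within 5 bases of the listed start on the coding strand, stood in 40.3% of member entries and in 18.3% of all. Below are 100 bases before to 20 after the listed start of 4 members to which the results return. Capitals mark any of these 5 patterns. Rpl38 (chr11:114668480-114668599, plus strand) was higher in the RV in every pair, and Rpl11 (chr4:136053374-136053493, minus strand) was lower in every pair. Rpl3l (chr17:24727726-24727845, plus strand) is the muscle paralogue, and Rpl26 (chr11:68901466-68901585, plus strand) differed by replicate number.

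Rpl38: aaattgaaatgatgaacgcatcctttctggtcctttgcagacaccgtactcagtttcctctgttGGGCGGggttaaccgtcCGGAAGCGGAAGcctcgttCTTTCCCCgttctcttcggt

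Rpl11: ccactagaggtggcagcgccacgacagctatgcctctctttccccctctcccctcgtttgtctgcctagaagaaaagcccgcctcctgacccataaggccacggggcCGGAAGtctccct

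Rpl3l: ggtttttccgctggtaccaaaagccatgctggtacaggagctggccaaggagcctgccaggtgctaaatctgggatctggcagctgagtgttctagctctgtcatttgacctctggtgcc

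Rpl26: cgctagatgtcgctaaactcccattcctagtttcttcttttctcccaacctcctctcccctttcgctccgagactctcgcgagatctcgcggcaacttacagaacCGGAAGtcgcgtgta

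The Rpl38 stretch carried the SP box, 2 adjacent copies of the ETS core and a pyrimidine run beginning at the listed start. Rpl26 and Rpl11 carried the ETS core alone, and the Rpl3l stretch none of the 5 patterns. These are letter matches only, and a missing match says nothing about a factor.

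Levels differed widely among the members. The mean level over the 12 libraries was at least 100 CPM for 10 members, 10 to 100 CPM for 28, 1 to 10 CPM for 32 and under 1 CPM for 10. The 4 members with most reads were Rpl8 (264 CPM), Rpl4 (249 CPM), Rps3 (242 CPM) and Rplp0 (215 CPM). They held 35.8% of all reads on the set, and the 20 highest members held 82.4%. At the other end Rpl10l, a paralogue of Rpl10 known from the testis, had no read in any library, where 3 reads is the limit that a count of 0 allows, and Rpl39l, also known from the testis, averaged 0.0472 CPM.

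Proteins that occur once per ribosome had RNA levels that differed by this much, and the levels went along with how much of each coding sequence is repeated elsewhere. In GENCODE M21 (GRCm38), every 50-base window of a member's principal coding sequence was looked up in the transcripts of all other genes, pseudogenes included. All windows were shared for 30 members, and at least 50% of them for 66 members. The median level per length was 16.7 CPM per kb of coding sequence in those 66 members and 120 CPM per kb in the other 14. The Spearman correlation between shared windows and level per length was −0.74 across the 79 members with any read, a description across genes. The submitters' notes do not say how reads with several matches were counted, and the part this played was not tested. Levels of members such as Rpl23a (0.546 CPM per kb), Rpl24 (0.966 CPM per kb) and Rps16 (0.950 CPM per kb), each 100% shared, are uncertain for that reason. The shared windows of Rpl23a were spread over 29 other genes. The low counts that kept Rpl23a and Rpl24 from the tests have the same limit. Rpl41, with a coding sequence of 75 bases that is 100% shared, had the highest value of all, at 574 CPM per kb, from a level of 43.0 CPM. Counts per gene were divided by coding length alone, so so short a coding sequence raises that value. Rplp0, with 951 coding bases and 60.3% of windows shared, had 226 CPM per kb, so sharing did not go with a low level in every member.

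**Figure D1:**
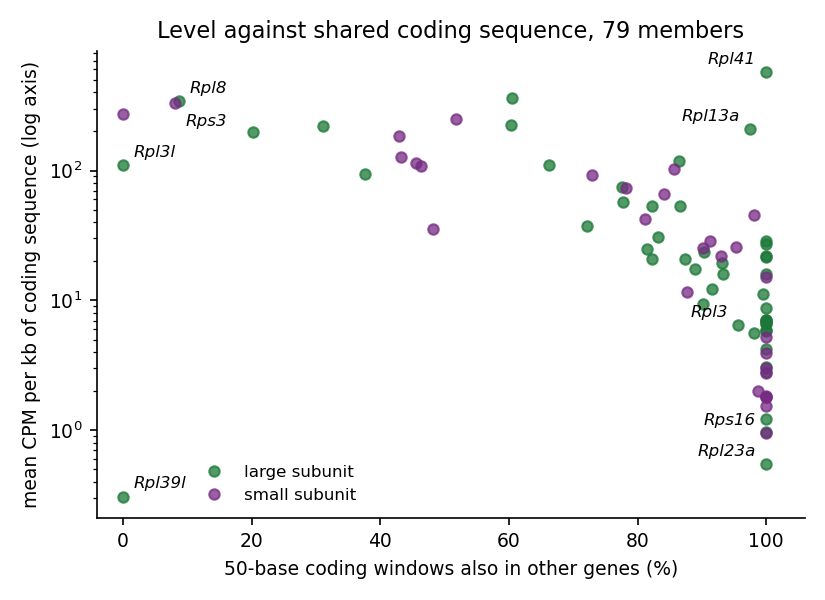
Mean level per length of 79 members (vertical log axis, CPM per kb of coding sequence) against the percentage of 50-base coding windows also found in other genes (horizontal axis). Green points are large subunit genes and purple points small subunit genes; members with under 50% shared, other than Rpl39l, lie high, and the 30 members at 100% spread down to the lowest values.

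Paralogues show the same thing in sequence. The first 60 coding bases of 3 pairs are printed to show why reads can tell some copies apart, with capitals at the bases that differ within a pair.

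Rpl3l: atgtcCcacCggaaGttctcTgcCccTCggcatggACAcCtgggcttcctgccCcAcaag

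Rpl3: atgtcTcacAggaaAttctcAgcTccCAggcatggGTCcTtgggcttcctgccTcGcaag

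Rpl36al: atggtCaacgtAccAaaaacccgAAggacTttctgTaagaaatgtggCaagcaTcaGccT

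Rpl36a: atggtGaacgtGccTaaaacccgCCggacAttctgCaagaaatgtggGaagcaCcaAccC

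Rpl39l: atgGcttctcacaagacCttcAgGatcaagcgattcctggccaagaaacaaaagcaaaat

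Rpl39: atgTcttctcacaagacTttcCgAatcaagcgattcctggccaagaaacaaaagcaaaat

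Rpl3l and Rpl3 differed at 13 of these 60 bases and were identical at 74.3% of aligned positions over the whole coding sequence. Rpl36al and Rpl36a were identical at 87.7%, and Rpl39l and Rpl39 at 85.0%, with 4 differences in the first 60 bases. No 50-base window of Rpl3l or Rpl39l occurred in another gene, so neither shares such a window even with the gene it is named for. The low level of Rpl39l thus concerns windows found in no other gene. By contrast 95.7% of the windows of Rpl3 occurred elsewhere, spread over 26 other genes. Rpl3l stood at 110 CPM per kb and Rpl3 at 6.45 CPM per kb, but only the first of these levels rests on sequence of its own. Rpl36al had 28.9 CPM per kb and Rpl36a, its X-linked relative, 6.65 CPM per kb, and all windows of both are shared with other genes. Rps27l had 35.7 CPM per kb with 48.3% of windows shared, and Rps27 had 1.85 CPM per kb with 100% shared.

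Reads on the 80 genes made up 0.289 ± 0.0341% of a library in the WntLOF RV, 0.239 ± 0.0385% in the WntLOF LV, 0.302 ± 0.0483% in the control RV and 0.253 ± 0.0348% in the control LV (SD, n = 3 each). The ranges of RV and LV overlapped in both genotypes, as did those of WntLOF and control in both ventricles. The library labelled control RV 2 had the highest share, at 0.357%, and the library labelled WntLOF LV 2 the lowest, at 0.211%. Both subunits had the same order of groups. Large subunit genes made up 0.182%, 0.151%, 0.188% and 0.158% in the WntLOF RV, WntLOF LV, control RV and control LV, and small subunit genes 0.107%, 0.0885%, 0.114% and 0.0952%. The 240 pseudogene rows named after these genes added between 26.6 and 74.3 CPM per library.

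**Figure D2:**
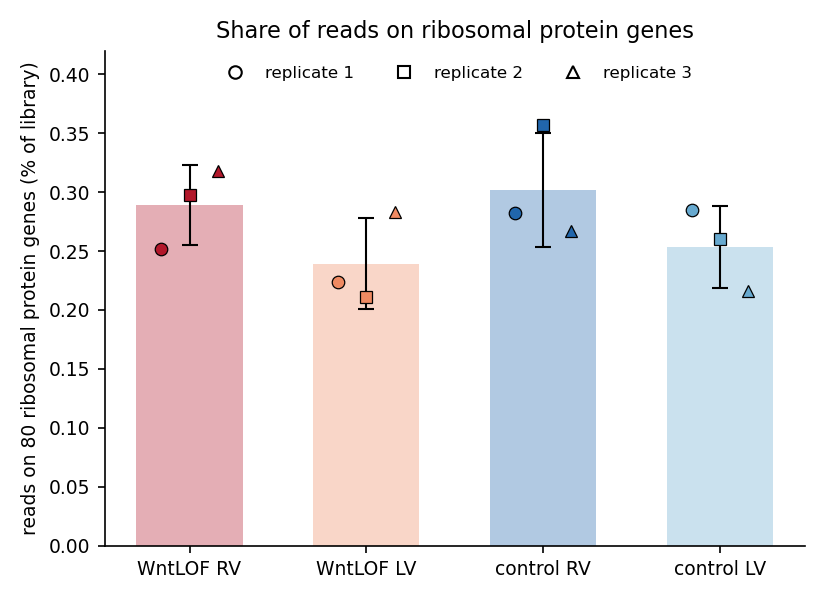
Percentage of each library's reads on the 80 ribosomal protein genes (vertical axis), by group; bars are means, error bars SD of 3 libraries, and symbols the libraries by replicate number. RV means of 0.289% and 0.302% stand above LV means of 0.239% and 0.253% with overlapping libraries.

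The first comparison asks how the ventricles differ within a genotype, which the series title places at the centre of the study. In WntLOF hearts 58 of the 76 tested members had a log2 fold change above 0 in the RV against the LV, with a median of 0.21, and in control hearts 62 of 76, with a median of 0.22. Over all genes tested 49.8% and 51.0% lay above 0, with medians of −0.00069 and 0.0039. No member passed an adjusted p of 0.05 in edgeR's quasi-likelihood test in either genotype, and the background was the same, with 0% of all genes called. DESeq2 called 0 genes as well. At an unadjusted p under 0.05 the WntLOF comparison had 16 members higher and 1 lower in the RV, against 3.22% and 1.59% of all genes. The control comparison had 8 higher and 0 lower, against 2.38% and 2.5% of all genes. DESeq2 put 19 higher and 1 lower at that level in WntLOF hearts, and 11 higher and 0 lower in control hearts, against 4.16% and 4.41% of all genes in either direction.

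**Figure D3:**
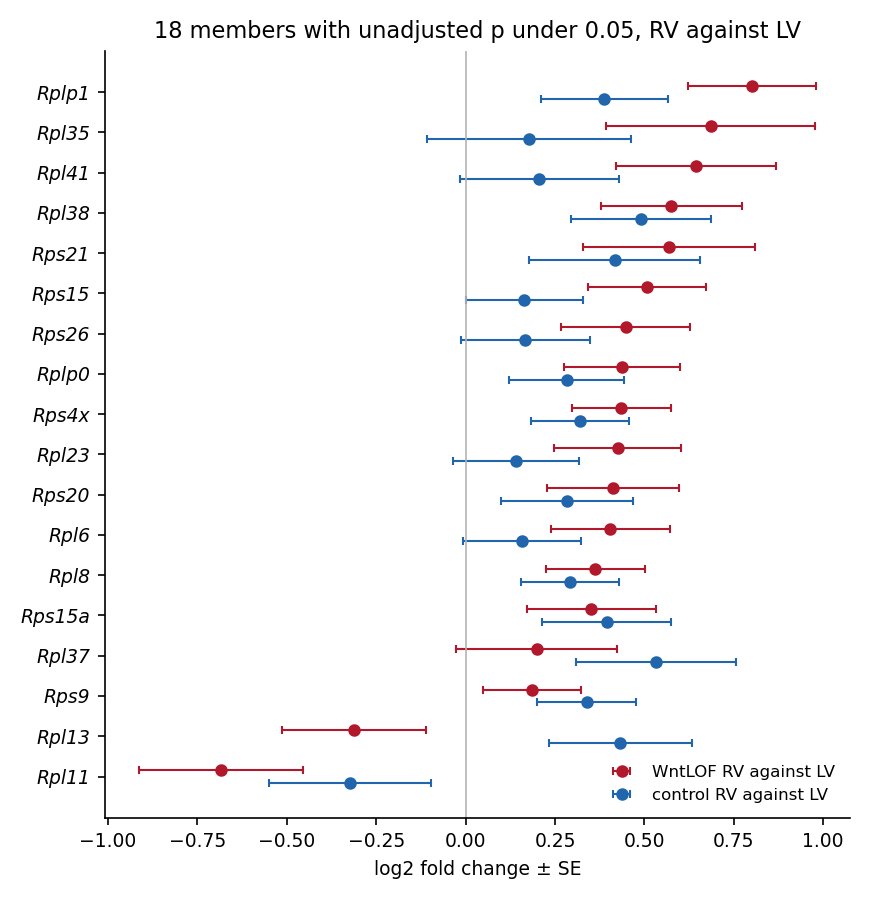
Log2 fold changes (horizontal axis, ± SE) of RV against LV for 18 of the members with an unadjusted p under 0.05 in either genotype. WntLOF is in red above control in blue, and some other members at that level are not shown. All those shown lie above 0 in both genotypes except Rpl11, below 0 in both, and Rpl13, at −0.31 in WntLOF and 0.43 in control hearts; none passed the adjusted threshold.

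The P stalk recruits and activates the elongation factors, and all 3 of its genes lay higher in the RV of both genotypes, with no adjusted p below 0.921 by edgeR. Rplp1, which pairs with Rplp2 on the stalk, had 122, 164 and 160 CPM in the WntLOF RV, against 84.5, 88.3 and 95.2 CPM in the WntLOF LV. The WntLOF groups did not overlap, and the log2 fold change of 0.80 (SE 0.18, unadjusted p = 0.000708) was the largest of any member there. In control hearts Rplp1 had 121, 179 and 128 CPM in the RV, against 125, 122 and 84.0 CPM in the LV, with overlap and a log2 fold change of 0.39 (SE 0.18). Rplp0, the base of the stalk, had log2 fold changes of 0.44 (SE 0.16) in WntLOF and 0.28 (SE 0.16) in control hearts. Rplp0 was higher in the RV library in 6 of 6 pairs of equal number.

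Among other large subunit genes, Rpl38, which in mouse embryos is known for its part in translating Hox messages, had 4.202, 5.63 and 6.04 CPM in the WntLOF RV, against 3.63, 3.35 and 4.11 CPM in the WntLOF LV. Its control values were 4.76, 6.12 and 5.51 CPM in the RV and 4.54, 4.08 and 3.09 CPM in the LV. The libraries did not overlap in either genotype, and the log2 fold changes were 0.57 (SE 0.20) and 0.49 (SE 0.20). All 50-base windows of Rpl38, and of Rpl41 below, occur in other genes, so these rows rest on the handling of shared reads. Rpl8, the member with most reads, had 249, 292 and 284 CPM in the WntLOF RV, against 208, 195 and 268 CPM in the WntLOF LV, overlapping in 1 library. Its log2 fold change was 0.36 (SE 0.14) there and 0.29 (SE 0.14) in control hearts. Rpl41 (0.65, SE 0.22), Rpl35 (0.69, SE 0.29), Rpl23 (0.43, SE 0.18) and Rpl6 (0.40, SE 0.17) were among the other large subunit genes at an unadjusted p under 0.05 on the higher side in WntLOF hearts. In control hearts Rpl37 (0.53, SE 0.22) and Rpl13 (0.43, SE 0.20) did so with Rpl38 and Rplp1.

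In the small subunit the X-linked gene Rps4x had 18.99, 21.4 and 23.8 CPM in the WntLOF RV, against 15.2, 14.3 and 20.03 CPM in the WntLOF LV. In control hearts it had 22.3, 25.7 and 20.7 CPM in the RV, against 19.3, 18.1 and 18.2 CPM in the LV, without overlap. It was higher in the RV in 6 of 6 pairs, with log2 fold changes of 0.43 (SE 0.14) and 0.32 (SE 0.14). Rps15 had 56.6, 51.5 and 71.2 CPM in the WntLOF RV, against 40.6, 39.6 and 51.2 CPM in the WntLOF LV, and a log2 fold change of 0.51 (SE 0.17). Its control value was 0.16 (SE 0.16). Rps21, Rps26 and Rps20 also had unadjusted p under 0.05 in WntLOF hearts, with log2 fold changes between 0.41 and 0.57. In control hearts Rps9 (0.34, SE 0.14) and Rps15a (0.40, SE 0.18) joined Rps4x.

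Rpl11 went the other way. With Rpl5 and 5S rRNA it forms a particle of the large subunit that, outside the ribosome, can bind Mdm2 and so hold back p53 degradation. It had 2.19, 1.16 and 1.56 CPM in the WntLOF RV, against 2.77, 2.41 and 3.02 CPM in the WntLOF LV. In control hearts it had 2.07, 2.0 and 2.07 CPM in the RV, against 3.03, 2.20 and 2.56 CPM in the LV. The ventricles did not overlap in either genotype, and Rpl11 was the only tested member lower in the RV in all 6 pairs. Its log2 fold changes were −0.68 (SE 0.23, unadjusted p = 0.0104) and −0.32 (SE 0.23), with adjusted p of 0.9996 and 0.924 by edgeR. All 50-base windows of Rpl11 occur in other genes, so the row rests on the handling of shared reads. Rpl5, its partner, had −0.10 (SE 0.19) and 0.03 (SE 0.19), and Rpl23, another Mdm2 binder, lay above 0 in both genotypes.

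Seen without the test, ventricles did not overlap for 6 members higher in the RV and 1 lower in WntLOF hearts, where 1.9% and 6.6% of all genes did so. In control hearts 8 members were higher and 1 lower without overlap, against 5.01% and 7.62% of all genes. By replicate number the median RV minus LV difference of the members, in log2 CPM, was 0.18, 0.37 and 0.23 in WntLOF pairs 1 to 3, and −0.037, 0.39 and 0.32 in control pairs 1 to 3. Thus 5 of 6 pairs had a median above 0, and control pair 1 had 29 members higher and 47 lower. The positive value of WntLOF pair 1 is the difference as labelled, in the pair that ran mostly opposite to the control pairs in other genes. The RV library was higher in 6 of 6 pairs for 13 members, which is 17.1% of those tested against 3.40% of all genes. Among them were Rpl27, Rpl37, Rpl38, Rpl3l, Rpl4, Rpl7a, Rpl8, Rplp0, Rplp2, Rps4x and Rps9.

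**Figure D4:**
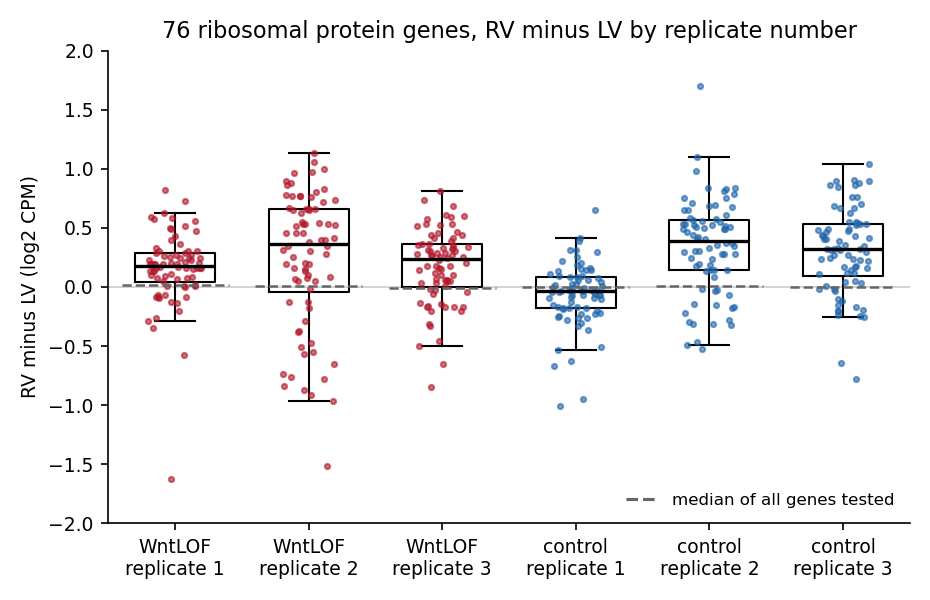
RV minus LV difference of each of the 76 tested members (vertical axis, log2 CPM) within the 3 WntLOF and 3 control pairs of equal replicate number; boxes give median and quartiles, and dashed lines the median of all genes tested. The box medians are 0.18, 0.37 and 0.23 in WntLOF and −0.037, 0.39 and 0.32 in control pairs.

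With the replicate number as a block, 27 members were higher and 2 lower in the WntLOF RV at an unadjusted p under 0.05, and 24 higher and 0 lower in the control RV. The share of all genes at that level, in either direction, grew with the block too, to 8.22% in WntLOF and 9.30% in control hearts, against 4.81% and 4.88% without it. The smallest adjusted p of a member by edgeR was then 0.147 in WntLOF and 0.514 in control hearts, so no member was called. Without the libraries labelled WntLOF RV 1 and WntLOF LV 1 the median was 0.25 in WntLOF and 0.23 in control hearts, and without control LV 2 as well 0.25 and 0.28. Without that WntLOF pair 20 members were higher and 2 lower in the WntLOF RV at an unadjusted p under 0.05 by edgeR. In the control RV 9 were higher and 0 lower. Of all genes 8.86% and 5.95% reached that level in either direction. The control median fell to 0.13 when control RV 2 was left out and to 0.13 when control LV 3 was left out. Without control RV 2, 0 members had an unadjusted p under 0.05, and 2.92% of all genes did. In WntLOF hearts the median ran from 0.15, without WntLOF RV 3 or without WntLOF LV 2, to 0.33 without WntLOF LV 3. The number of members higher at that level was 2 without WntLOF RV 3 and 4 without WntLOF LV 2. It was 5 without WntLOF LV 1 or without WntLOF RV 2, 26 without WntLOF RV 1 and 32 without WntLOF LV 3. The share of all genes at that level moved with it, at 3.21% without WntLOF RV 3, 2.44% without WntLOF LV 2, 4.06% without WntLOF LV 1, 2.27% without WntLOF RV 2, 10.3% without WntLOF RV 1 and 9.03% without WntLOF LV 3. In control hearts the number of members also fell to 1 without control LV 3 and 5 without control LV 2, beside 3.24% and 4.93% of all genes.

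Other measures were compared between the ventricles as well. The 1354 tested non-member genes with the shortest coding sequences, up to 546 bases, had medians of 0.14 in WntLOF and 0.086 in control hearts, and the 1342 with the longest had −0.035 and −0.014. Mitochondrial ribosomal protein genes lay higher in the RV too, with 68 of 75 above 0 (median 0.20) in WntLOF hearts and 65 of 75 (median 0.13) in control hearts. Of these 75, 18 and 2 were higher and 1 and 0 lower at an unadjusted p under 0.05, and none was called. Of all genes 3.22% and 2.38% were higher at that level and 1.59% and 2.5% lower, so the control count is near the background. Mrps21, a small subunit gene of that set, had log2 fold changes of 0.76 (SE 0.21) and 0.28 (SE 0.21). Mitochondrially encoded reads made up 4.98% to 8.29% of WntLOF RV libraries and 4.62% to 5.70% of WntLOF LV libraries, against 5.22% to 6.27% in the control RV and 5.06% to 7.42% in the control LV. Erythroid markers (6 of 6 detected) summed to 90.5 to 313 CPM in the WntLOF RV and 80.4 to 229 CPM in the WntLOF LV, and to 158 to 249 CPM in the control RV and 109 to 139 CPM in the control LV. Endothelial markers (7 of 7) summed to 826 to 1044 CPM in the WntLOF RV and 866 to 1040 CPM in the WntLOF LV, and to 920 to 988 CPM in the control RV and 1030 to 1148 CPM in the control LV. Mitochondrial shares overlapped between ventricles in both genotypes, and the erythroid and endothelial sums overlapped in WntLOF but not in control hearts. Adipocyte sums (0.0627 to 1.66 CPM in the control RV, 2.66 to 3.87 CPM in the control LV) did not overlap there either. Nor did T and B lymphocyte sums (2.85 to 4.06 CPM and 4.07 to 4.76 CPM). The sums of the remaining lists overlapped in control hearts. The part of coding length and cell types in the RV result was not tested. In such bulk libraries fewer cells of a type and less RNA per cell cannot be told apart.

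Members that share less of their coding sequence gave the same order of ventricles. Of the 12 tested members with under 50% of windows shared, 12 lay above 0 in both genotypes, with medians of 0.29 in WntLOF and 0.21 in control hearts. Of the 64 with at least 50% shared, 46 and 50 lay above 0, with medians of 0.20 and 0.23.

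Other parts of the translation machinery can be set beside the members. Ribosomal protein genes outside the naming rule behaved alike in direction, with 5 of 6 above 0 in WntLOF RV against LV (median 0.18) and 6 of 6 in control hearts (median 0.26). Fau, which encodes a ubiquitin-like protein fused to a small subunit protein, was one of them and had 0.75 (SE 0.23) and 0.24 (SE 0.23). Other TOP messages had medians of 0.11 and 0.12, with 12 and 15 of 18 above 0. Initiation, elongation and release factors had medians of 0.018 and 0.030, with 19 and 18 of 35 above 0. The 49 ribosome biogenesis genes, which make rRNA and assemble subunits, had medians of 0.0029 and 0.016, and the 24 tested mTORC1, MYC and TOP regulators −0.014 and −0.012. No gene of these lists was called in any comparison by edgeR.

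The second comparison asks what Wnt loss of function does to these genes in each ventricle. In the LV 50 of 76 members lay below 0 in WntLOF against control, with a median log2 fold change of −0.085, and in the RV 49 of 76, with a median of −0.068. Over all genes tested 50.9% and 49.7% lay below 0. No member and no gene was called by edgeR, for a background of 0%, or by DESeq2. At an unadjusted p under 0.05 there were 0 members higher and 1 lower in each ventricle. In the LV 1.43% of all genes were higher and 1.42% lower at that level, and in the RV 1.54% and 1.16%, so the members' counts are near the background. DESeq2 put 2 members lower in the LV and 1 in the RV, and 0 higher in either. Of all genes it put 2.08% and 1.96% at that level in either direction, so these counts are near the background too.

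Single libraries set these medians. The LV median was 0.016 without control LV 1, −0.018 without WntLOF LV 2, −0.044 without WntLOF LV 1, −0.18 without control LV 3 and −0.22 without WntLOF LV 3. The RV median was 0.082 without control RV 2, −0.00015 without WntLOF RV 1, −0.10 without control RV 3 and −0.16 without WntLOF RV 3. Without the libraries labelled WntLOF RV 1 and WntLOF LV 1 it was −0.044 in the LV and 0.0012 in the RV. No direction for the set is therefore stated between genotypes.

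The member past the unadjusted level in the LV was Rpl10a, a large subunit gene, with 6.89, 6.56 and 5.82 CPM in the WntLOF LV, against 9.65, 7.59 and 7.46 CPM in the control LV. The libraries did not overlap, and the log2 fold change was −0.39 (SE 0.15, unadjusted p = 0.0178, adjusted p = 0.999 by edgeR). In the RV its value was −0.09 (SE 0.15). Rps6, a small subunit gene whose protein is phosphorylated downstream of mTORC1, had 1.66, 1.54 and 1.77 CPM in the WntLOF LV, against 0.991, 1.26 and 1.13 CPM in the control LV. These libraries did not overlap either, with a log2 fold change of 0.52 (SE 0.25, unadjusted p = 0.0592 by edgeR). The row had 15 to 31 reads in these libraries and shares all its windows with other genes. Rpl10a and Rps6 were the only tested members without overlap in the LV, and no share of all genes is set beside that. In the RV the member past the unadjusted level was Rpl13. It had 9.24, 6.04 and 10.6 CPM in the WntLOF RV, against 10.9, 15.04 and 10.1 CPM in the control RV. The groups overlapped, and its log2 fold change was −0.46 (SE 0.20, unadjusted p = 0.0375).

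Genes known from Diamond-Blackfan anaemia, a human disorder of ribosomal protein dosage, had 11 of 19 below 0 in the LV (median −0.042) and 14 of 19 in the RV (median −0.16). Tunnel exit genes, whose proteins line the path of the nascent chain, had 4 of 7 and 3 of 7 below 0. The 4 X-linked members had 3 of 4 and 4 of 4 below 0, with medians of −0.18 and −0.20. No member of these lists was called.

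The authors' deposited tables list 71 of the members for each ventricle. In the authors' deposited table for the LV, 48 of 71 had a log2 fold change below 0, with a median of −0.12 and a smallest adjusted p of 0.841. In the authors' deposited table for the RV, 35 of 71 were below 0, with a median of 0.0021 and a smallest adjusted p of 0.918. The authors' deposited tables also put 5 members in the LV and 4 in the RV under an unadjusted p of 0.05, where 5.6% and 5.39% of all their genes were.

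The interaction asks whether the genotype difference was itself unlike between RV and LV. Its median over members was 0.0093, with 40 of 76 above 0, and 0% of all genes were called by edgeR. At an unadjusted p under 0.05 there were 0 members higher and 1 lower, against 1.05% and 0.962% of all genes. That member was Rpl13, at −0.74 (SE 0.28, unadjusted p = 0.0201).

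Many members also varied together from library to library, differences between groups included. Over the 12 libraries, 36 of the 38 members at 10 CPM or more had a Spearman correlation of at least 0.5 with the median of the other members, and the median correlation was 0.86. Among the 38 members under 10 CPM it was 14, with a median of 0.19. All these values share the same 12 libraries and their totals. Group means were not removed, so differences between ventricles are part of these correlations. No share of all genes at that level is set beside them. Rpl18 (0.97), Rpl32 (0.95) and Rplp2 (0.94) stayed closest to the rest. Of the 76 members 11 had a correlation below 0, and Rps23 (−0.50), Rps16 (−0.48) and Rpl11 (−0.39), all low and fully shared, had the lowest. The 2 members at 10 CPM or more that fell short of 0.5 were Rps24 (0.056) and Rpl3l (−0.028).

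Rpl3l had 148, 167 and 119 CPM in the WntLOF RV, against 152, 135 and 121 CPM in the WntLOF LV, and 108, 199 and 110 CPM in the control RV, against 99.0, 160 and 95.1 CPM in the control LV. Replicate 2 was highest in 3 of the 4 groups, and the control libraries numbered 1 and 3 were the lowest. WntLOF and control overlapped in both ventricles, at 0.17 (SE 0.26) for the LV and 0.075 (SE 0.26) for the RV on the log2 scale. RV and LV overlapped as well, at 0.15 (SE 0.26) in WntLOF and 0.24 (SE 0.26) in control hearts.

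Outside the set, the 5 tested genes whose log2 CPM followed the members most closely over the 12 libraries were Ndufs6 (Spearman 0.97), Use1, Id3, Uqcr11 and Ndufa5 (0.97 each). Ndufs6 and Ndufa5 encode subunits of respiratory complex I, Uqcr11 one of complex III, Use1 a protein of vesicle fusion and Id3 an inhibitor of helix-loop-helix factors. Uqcr11 had 186, 215 and 302 CPM in the WntLOF RV, against 163, 150 and 253 CPM in the WntLOF LV.

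A few rows did not follow groups at all. Rpl26, a tunnel exit gene, had 0.560, 0.987 and 40.0 CPM in the WntLOF RV, 0.923, 1.88 and 35.3 CPM in the WntLOF LV, 0.951, 0.732 and 16.4 CPM in the control RV and 1.15, 1.05 and 8.21 CPM in the control LV. The library numbered 3 was the high one in every group. In WntLOF against control, the Rpl26 log2 fold change was 1.95 (SE 2.06) for the LV and 1.19 (SE 1.94) for the RV, and its size rests on those libraries. Of its neighbours on chromosome 11, Ndel1, Arhgef15 and Slc25a35 varied by 1.43-fold, 1.63-fold and 1.65-fold between the highest and lowest library, and Rnf222, under 1 CPM in every library, by 4.04-fold.

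Genes with a read outside the libraries numbered 3 were searched. In 13 of them every library numbered 3 had at least 15 reads and was more than 3-fold above all others. Of these, 4 are Y-linked, and 6 lie on chromosome 11 (Rpl26, Cyfip2, Pttg1, Hba-a2, Gm12167 and Glns-ps1), where 8.53% of genes tested lie. Rpl3-ps1, a pseudogene row of Rpl3, was another, with 2.18, 3.20, 2.19 and 1.81 CPM in number 3 of the WntLOF RV, WntLOF LV, control RV and control LV and at most 0.262 CPM elsewhere. The libraries numbered 3 are also those with Y-linked reads, so sex, heart and number cannot be told apart here.

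**Figure D5:**
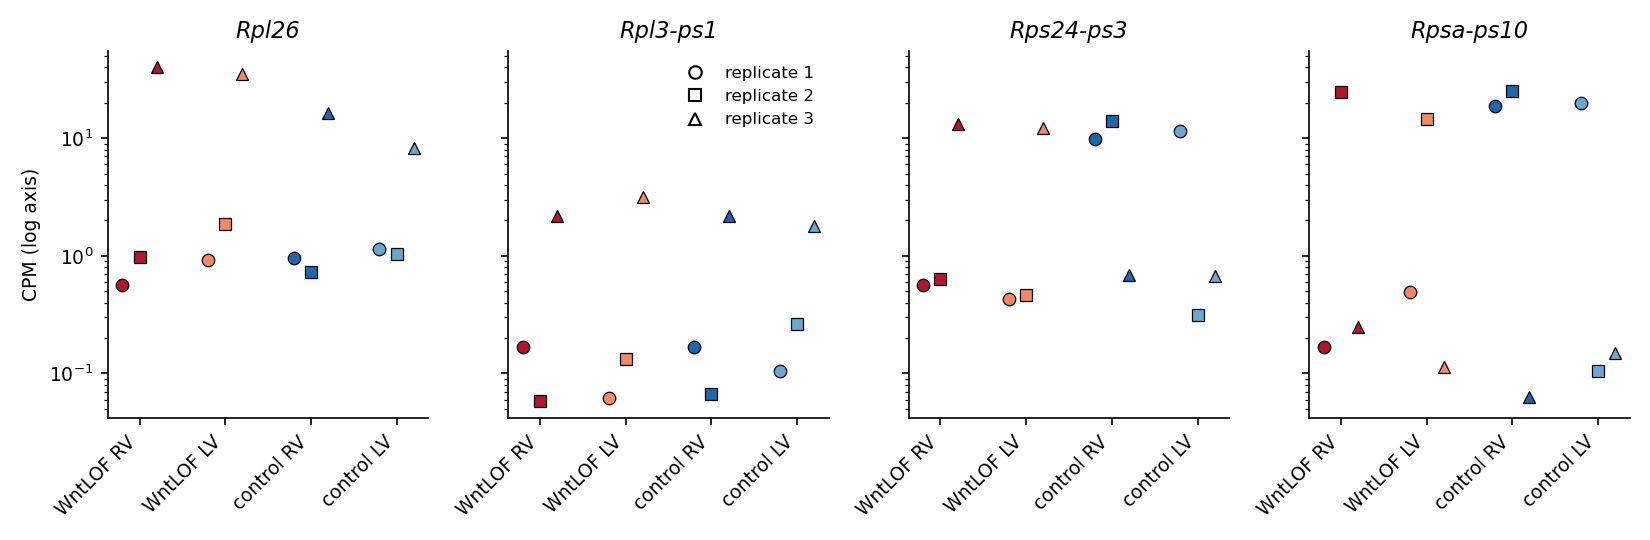
Level (vertical log axis, CPM) of the 4 ribosomal protein rows, Rpl26 and 3 pseudogene rows, that differed over 10-fold between libraries and had at least 50 reads in one, by group; symbols are replicate numbers. Rpl26 and Rpl3-ps1 are high in the libraries numbered 3, and the library labelled control LV 2 is low in Rps24-ps3 and Rpsa-ps10, where control RV 2 is high.

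The other pseudogene rows split the libraries otherwise. Rps24-ps3 had 13.1 and 12.3 CPM in WntLOF RV 3 and WntLOF LV 3, 9.90 and 14.0 CPM in control RV 1 and control RV 2, and 11.5 CPM in control LV 1, with at most 0.689 CPM in the rest. Rpsa-ps10 had 24.9 and 14.5 CPM in WntLOF RV 2 and WntLOF LV 2, 18.9 and 25.2 CPM in control RV 1 and control RV 2, and 19.9 CPM in control LV 1, with at most 0.492 CPM in the rest. RV and LV libraries of equal number had the same state in 5 of 6 pairs in both rows, and the exception in both was number 2 of the controls, where control RV 2 was high and control LV 2 low.

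The members Rpl34 and Rpl30 were each highest in control RV 2. Rpl34 had 9.97, 12.7 and 15.9 CPM in the WntLOF RV, against 11.8, 32.8 and 12.2 CPM in the control RV, and its LV values were 10.2, 8.37 and 13.6 CPM in WntLOF and 13.5, 9.89 and 7.91 CPM in control hearts. Rpl30 had 8.18, 12.7 and 10.8 CPM in the WntLOF RV, against 10.4, 21.2 and 8.58 CPM in the control RV. Without control RV 2 the log2 fold change of Rpl34 in the RV, −0.54 (SE 0.38) in WntLOF against control, was 0.10.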

How the data were processed

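Bulk RNA-seq was read from 12 libraries of 4 groups of 3, with groups taken from the sample titles. The authors deposited raw counts per Ensembl gene. Per the submitters' processing notes, featureCounts of Subread and edgeR were used. The aligner, build, strand setting and handling of reads with several matches were not given in the sources used here. Their 2 further deposited tables hold, per the file headers, log2 fold changes, log2 CPM, p-values, adjusted p-values and signed linear fold (ratio) values for WntLOF against control. In these tables the log2 CPM of 6 genes, none a member, differed from the counts by over 0.01. Of 41192 rows, 598 repeated a gene with equal counts and were dropped, leaving 40594 genes. 1 gene that fits the naming rule is not reported here, and some others count in the totals but are not reported singly.

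Members and lists were chosen with earlier results of these data known. CPM are counts per 1000000 counts of the library. Counts were tested with edgeR 4.0.16 (limma 3.58.1, R 4.3.3), after filterByExpr by group (15494 genes), with TMM factors and a robust quasi-likelihood fit of 1 mean per group over all 12 libraries. Benjamini-Hochberg adjustment covered all genes tested, and a gene was called at an adjusted p under 0.05. Standard errors (SE) were obtained as the absolute log2 fold change divided by the root of the F statistic. Scripts were tested on simulated data. Log2 CPM per library used a prior count of 2. DESeq2 1.42.0, other size factors, other filters, fits of the compared groups alone, a replicate block and leaving out libraries were the alternatives. Coding sequences came from GENCODE M21, matched by Ensembl ID for 80 of 80 members, principal isoforms first, and windows of 50 and 75 bases were searched in all other genes' transcripts. Promoters came from RefSeq by symbol.

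The named members were the 4 with the largest fold change per comparison, members with an unadjusted p under 0.05, the 4 highest and 2 lowest by level, the paralogues with the genes they are named for, and fixed role genes. Rpl30, the members higher or opposite in all pairs, those named for their correlation, Rplp2, the on-off pseudogene rows, the genes beside Rpl26 and those sharing its pattern were chosen after their values were seen. Libraries of equal number had correlated deviations from their group means between RV and LV, at 0.191, 0.197 and 0.594 in WntLOF and 0.411, 0.29 and 0.517 in control hearts for numbers 1 to 3. All exceed 0.1, so numbers were taken to pair the ventricles, from the data and not from a label. In WntLOF hearts libraries of unequal number reached 0.201, above the values of numbers 1 and 2, so the pairing of those libraries is uncertain. In control hearts unequal numbers reached at most 0.0727. Control LV 2 and control RV 2 had opposite states in Rps24-ps3 and Rpsa-ps10, so the pairing of number 2 is uncertain there too. Libraries numbered 3 also share Y-linked reads, so heart and sex cannot be told apart in their correlations. The replicate block and the counts over pairs carry these limits. WntLOF and control libraries were not taken as paired, since not all values exceeded 0.1 (−0.043, −0.090 and 0.23 in the LV, 0.089, 0.11 and 0.31 in the RV). Counting error on 28664 to 54564 member reads per library is small beside the spread between libraries for members with many reads.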

Additional observations from a re-analysis of the deposited data

Results flagged for a closer look

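In 4 members the RV minus LV difference had one sign in all 3 WntLOF pairs of equal number and the other sign in all 3 control pairs. They are 5.26% of the 76 members tested, against 2.70% of all genes tested. Rpl13, a large subunit gene, was lower in the RV in 3 of 3 WntLOF pairs, with RV minus LV differences of −0.26, −0.57 and −0.17 log2 CPM, and higher in 3 of 3 control pairs, at 0.14, 0.68 and 0.44 log2 CPM. The difference of the RV against LV changes, WntLOF minus control, was −0.74 (SE 0.28, unadjusted p = 0.0201, adjusted p = 0.9997 by edgeR). The other three were higher in the RV in 3 of 3 WntLOF pairs and lower in 3 of 3 control pairs. Rpl10a had 0.074, 0.32 and 0.099 in the WntLOF pairs and −0.26, −0.069 and −0.021 in the control pairs, and the difference of the changes was 0.30 (SE 0.21, unadjusted p = 0.166, adjusted p = 0.9997 by edgeR). Rpl28 had 0.33, 0.35 and 0.36 in the WntLOF pairs and −0.039, −0.15 and −0.20 in the control pairs, with a difference of 0.52 (SE 0.36, unadjusted p = 0.189 by edgeR). Rpsa, a small subunit gene, had 0.076, 0.40 and 0.14 in the WntLOF pairs and −0.33, −0.53 and −0.15 in the control pairs, with a difference of 0.53 (SE 0.36, unadjusted p = 0.160 by edgeR). WntLOF pair 1 had the control direction in 24 of the 100 genes outside the set that led control RV against LV. All 4 members share nearly all 50-base coding windows with other genes (98.8% to 100%). Rpl28 had 14 to 24 reads per library and Rpsa 19 to 39, so few that counting error limits their differences.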

How the results depend on the processing

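No member was called under any alternative run. The number of genes called in control RV against LV was 9 in a fit of the compared groups alone, 2 without WntLOF pair 1 and 2 without that pair and control LV 2. In WntLOF RV against LV it was 1 with the replicate block, 2 without WntLOF pair 1, 2 without that pair and control LV 2, and 0 to 1 with 1 library left out. The interaction had 1 with the replicate block. The block changed no other call. With 1 library left out in turn, Rpl26 ran from −1.26 to 3.51 in the LV and from −2.97 to 4.05 in the RV of WntLOF against control, and from −1.94 to 2.49 in control RV against LV. Rpl34 ran from −0.79 to 0.10 and Rps16 from −0.0037 to 1.35 in the RV of WntLOF against control. These low or uneven rows reversed, and the cause was not tested. Of the other values for single members 669 kept direction and side of the threshold. The depth limits members under 1 CPM most.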
